A study of Mus musculus with 6 samples.

Results

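The genes described here encode the machinery that takes nascent secretory proteins into the endoplasmic reticulum (ER), trims and glycosylates them there, and packs them into COPII vesicles. They are a list of 39 genes chosen by name for their known place in the pathway, among the 55414 genes of the count table, and they were sorted into 10 sub-complexes. Of the 39 names, 38 were matched as listed, and the alpha subunit of the signal recognition particle receptor, listed as Srpr, was matched as Srpra. The RNA-seq libraries were made from small intestinal Paneth cells of wild-type C57BL/6J mice, which had been collected by FACS. In the standard diet group (St_TNF), 3 libraries were from animals fed standard chow, and in the zinc depleted group (ZincDef_TNF), 3 libraries came from mice that ate zinc depleted chow for 7 weeks. Mice of both groups had been treated with tumor necrosis factor (TNF) 3 hours before sampling, so TNF was common to the groups and its own effect was not measured here. The labels give 3 libraries per group while the series text mentions 4, and the study describes its sorted samples as coming from individual mice. Nothing in the labels ties a library to a litter, a day or a sort.

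Proteins bound for secretion carry a signal sequence that the signal recognition particle (SRP) reads as it leaves the ribosome. The SRP receptor docks the ribosome at the ER membrane, the chain threads through the Sec61 channel with help from Sec62, Sec63, TRAM and the TRAP complex, signal peptidase cuts off the signal sequence, and oligosaccharyltransferase (OST) attaches a preassembled glycan to asparagine residues. Folded cargo leaves through COPII vesicles, whose coat is started by the GTPase Sar1 and built from an inner layer of Sec23 and Sec24 and an outer layer of Sec13 and Sec31, and Paneth cells, which are filled with secretory granules of antimicrobial peptides, depend heavily on this route.

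Levels are given as TMM-scaled CPM, that is, counts over the effective library size, for which the trimmed mean of M-values factor of edgeR sets the typical gene to the same level throughout, and values are listed in the order of replicates 1, 2 and 3. The libraries held 6139397 to 12772373 counts, and the TMM factors ran from 0.460 in zinc depleted replicate 3 to 1.73 in standard diet replicate 1. The 3 zinc depleted libraries did not behave as 1 group in how counts depended on gene length. Over the 9567 tested genes with a coding length, the deviation of a gene from its mean over the 6 libraries changed by 0.21, 0.18 and -0.06 log2 units per doubling of coding length on standard diet and by 0.33, -0.20 and -0.45 under zinc depletion. Long genes thus had relatively more counts in zinc depleted replicate 1 and relatively fewer in zinc depleted replicates 2 and 3. Per doubling of transcript length, over 9740 tested genes, the slopes were 0.18, 0.15 and -0.05 on standard diet and 0.36, -0.18 and -0.45 under zinc depletion. These slopes over transcript length differed between the diets by -0.19 (mean -0.09 ± 0.41 SD, n = 3, against 0.09 ± 0.13, n = 3), with p = 0.6 in an exact two-sided permutation test over libraries that cannot go below 0.1. Defining markers of the labelled cell type were abundant: the 8 Paneth markers summed to 502029 to 600982 CPM in the standard diet libraries and to 540317 to 624524 CPM in the zinc depleted libraries. On the TMM scale these sums were 290854, 348699 and 669294 on standard diet and 370674, 958415 and 1358210 under zinc depletion. Zinc depleted replicates 2 and 3 were the highest on both scales. In sorted bulk samples, fewer cells of a type and less RNA per cell cannot be told apart.

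Together the 39 genes took 0.356, 0.333 and 0.253% of all counts on standard diet and 0.424, 0.229 and 0.218% under zinc depletion. These shares overlapped between the diets, and the highest and the lowest of them were both from zinc depleted libraries. All 39 passed the filter on low counts. In the edgeR quasi-likelihood test, adjusted over 9749 tested genes by the Benjamini-Hochberg method, 0 of the 39 genes passed an adjusted p of 0.05, and of all tested genes 0% passed. The smallest adjusted p of any gene was 0.681. DESeq2 called 10 genes and limma-voom 0, and 0 of the 39 were among either.

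By sign alone, 33 of the 39 genes were higher and 6 were lower in the zinc depleted libraries, and their median log2 fold change was 0.60, against 0.00 over all tested genes (quartiles -0.44 and 0.43). When libraries were scaled by total counts only, 16 were higher and 23 lower, but the median of all tested genes then moved to -0.66, and the 39 genes lay 0.59 above it at -0.07. Log2 fold changes are therefore read against the median of all tested genes, which TMM sets close to 0. At an unadjusted p under 0.05, 7 of the 39 genes (17.9%) were higher in the zinc depleted libraries and 0 were lower, where over all tested genes 2.58% were higher and 4.03% were lower. These 7 were Srp14, Srp19, Sec61b, Sec61g, Ssr2, Ssr3 and Ost4. DESeq2 gave 12 such genes, all higher, where 4.26% of all tested genes were higher. Limma-voom gave 7, all higher, where 3.38% were higher, and scaling by total counts only gave 0, where 0.082% were higher. The count rested on single libraries, and the share over all tested genes moved as well. Without standard diet replicate 3 the count was 16, where 8.36% of all tested genes were higher. Without zinc depleted replicate 1, 17 were higher and 2 lower (Sec24a and Sec24b), where 12.3% of all tested genes were higher and 11.9% lower. The count was 1 without standard diet replicate 1 (0.40% of all tested genes higher), standard diet replicate 2 (0.67%) or zinc depleted replicate 2 (0.85%). Without zinc depleted replicate 3 it was 0, where 1.82% of all tested genes were higher. Groups did not overlap for 6 higher genes (15.4%), Srpra, Tram1, Ssr1, Ssr3, Spcs3 and Rpn1, and for 1 lower gene, Sec23a, where over all tested genes 3.51% lay apart and higher and 6.58% lay apart and lower. Ssr3 alone was in both sets. The share of counts of Rn18s-rs5, a gene related in sequence to ribosomal RNA, also lay apart, at 2.56, 2.91 and 1.27% on standard diet and 0.522, 0.884 and 0.883% under zinc depletion. Its part in these differences was not tested.

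**Figure D1:**
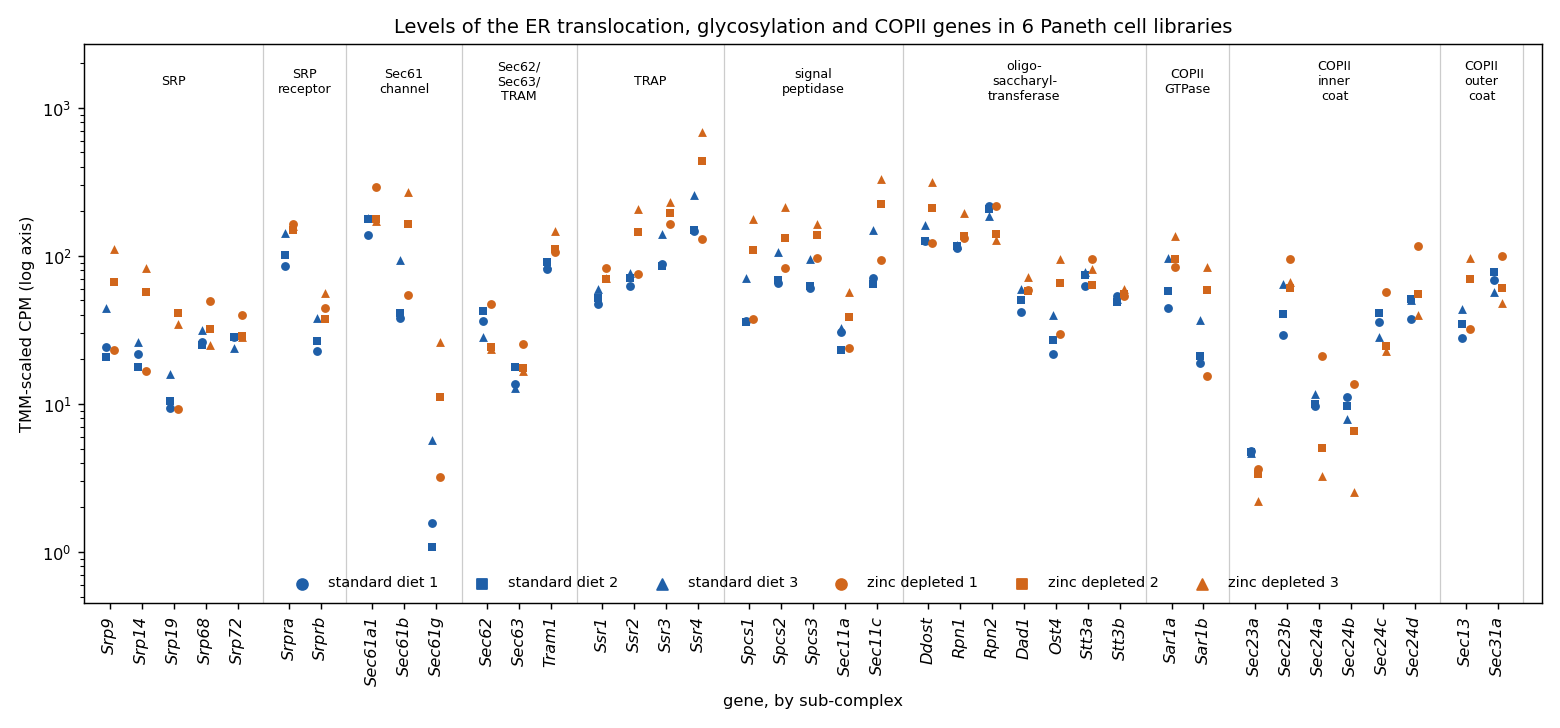
Level of each of the 39 genes (TMM-scaled CPM, log axis) in the 3 standard diet libraries (blue) and the 3 zinc depleted libraries (orange), with genes in order of sub-complex and the marker shape giving the replicate. In many genes of the left part, such as Srp9, Sec61b and Ssr4, zinc depleted replicates 2 and 3 lie above all standard diet libraries while replicate 1 lies among or below them, and in Sec24a and Sec24b the order is the opposite.

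The signal recognition particle, which binds signal sequences, had a median log2 fold change of 1.16 over its 5 listed proteins, all higher by sign. Srp9, which with Srp14 binds the Alu domain of the particle's RNA and slows elongation, was at 24.1, 20.7 and 44.8 TMM-scaled CPM on standard diet and 23.3, 66.5 and 111 under zinc depletion, at a log2 fold change of 1.16 ± 0.55 (SE, adjusted p = 0.681, edgeR). Srp14 was at 21.8, 17.8 and 26.01 on standard diet and 16.8, 56.8 and 82.6 under zinc depletion, at a log2 fold change of 1.25 ± 0.53 (SE, adjusted p = 0.681, edgeR). In both genes zinc depleted replicates 2 and 3 were above every standard diet library and zinc depleted replicate 1 was not, so the groups overlapped. Srp19, which helps to assemble the particle, showed the same pattern at 9.32, 10.4 and 15.8 against 9.20, 41.4 and 34.6 under zinc depletion. The long subunits differed from these: Srp68, which binds the particle's RNA together with Srp72, was at 26.2, 25.01 and 31.6 on standard diet and 49.2, 31.98 and 24.9 under zinc depletion, with zinc depleted replicate 1 highest. Srp72 was at 28.3, 28.4 and 23.8 against 39.96, 28.6 and 28.3 under zinc depletion, again with zinc depleted replicate 1 highest. The ratio of Srp9 to Srp68 counts within a library, which no scaling can alter, was 0.919, 0.827 and 1.42 on standard diet and 0.473, 2.08 and 4.45 under zinc depletion, so both the lowest and the highest ratio were in zinc depleted libraries.

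The subunits of the SRP receptor kept a steady ratio to each other, while their levels differed between libraries. Srpra, the subunit that receives the particle, was at 84.9, 101 and 143 on standard diet and 163, 149 and 159 under zinc depletion, at a log2 fold change of 0.52 ± 0.38 (SE, adjusted p = 0.711, edgeR). Every zinc depleted library was above every standard diet library, although edgeR made no call. Srprb, the membrane GTPase that anchors Srpra, was at 22.8, 26.7 and 37.95 against 44.8, 37.7 and 56.5 under zinc depletion, at a log2 fold change of 0.67 ± 0.38 (SE, adjusted p = 0.681, edgeR), and zinc depleted replicate 2 was just under standard diet replicate 3. Counts of Srprb were 0.269, 0.265 and 0.266 times those of Srpra on standard diet and 0.274, 0.253 and 0.355 times under zinc depletion. This was the narrowest range of the 19 ratios computed, 1.40-fold from lowest to highest, although the coding lengths were 807 and 1908 bases.

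The Sec61 channel had the highest median of the 10 sub-complexes, a log2 fold change of 1.501 over 3 genes, and its members differed widely. Sec61a1, which forms the pore, was at 139, 177 and 179 on standard diet and 293, 176 and 172 under zinc depletion, at a log2 fold change of 0.37 ± 0.41 (SE, adjusted p = 0.796, edgeR). Only zinc depleted replicate 1 was above the standard diet libraries. Sec61b, a small tail-anchored subunit, was at 38.2, 41.4 and 93.6 against 54.4, 165 and 271 under zinc depletion, at a log2 fold change of 1.501 ± 0.59 (SE, adjusted p = 0.681, edgeR). Sec61g, the small subunit that holds the pore together at its side, was at 1.58, 1.08 and 5.69 on standard diet and 3.23, 11.1 and 26.2 under zinc depletion, at a log2 fold change of 2.27 ± 0.78 (SE, adjusted p = 0.681, edgeR). Zinc depleted replicates 2 and 3 were the highest libraries for both small subunits, and zinc depleted replicate 1 lay within the standard diet range. Sec61g rested on few reads, with 20, 10 and 51 counts on standard diet and 47, 53 and 154 under zinc depletion. Sec61b counts were 0.276, 0.233 and 0.523 times those of Sec61a1 on standard diet and 0.186, 0.936 and 1.58 times under zinc depletion, an 8.49-fold range among subunits of 1 channel, and zinc depleted replicates 1 and 3 were its ends.

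Around the channel, Tram1, which contacts signal sequences as they enter the membrane, was at 81.3, 91.3 and 88.4 against 105, 112 and 147 under zinc depletion, at a log2 fold change of 0.48 ± 0.37 (SE, adjusted p = 0.719, edgeR), with no overlap between the groups. Sec62, a partner of the channel for short and post-translational substrates, was at 36.6, 42.8 and 28.1 on standard diet and 47.5, 24.2 and 23.3 under zinc depletion, where the log2 fold change was -0.17 ± 0.41 (SE). Sec63, which brings the chaperone BiP to the channel, was at 13.7, 17.8 and 12.8 against 25.3, 17.5 and 16.7 under zinc depletion. In both genes zinc depleted replicate 1 was the highest library, as it was for Sec61a1.

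The TRAP complex, which sits beside the channel and aids the entry of proteins with weak signal sequences, had a median log2 fold change of 0.96 over 4 genes, all higher by sign. Ssr1, the alpha subunit, was at 47.4, 51.96 and 60.2 on standard diet and 83.4, 69.8 and 70.5 under zinc depletion, and each zinc depleted library was above each standard diet library. Ssr2, the beta subunit, was at 62.9, 70.7 and 76.7 against 75.04, 145 and 206 under zinc depletion, at a log2 fold change of 1.02 ± 0.44 (SE, adjusted p = 0.681, edgeR), and zinc depleted replicate 1 lay just under standard diet replicate 3. Ssr3, the gamma subunit, was at 88.3, 85.7 and 142 on standard diet and 164, 194 and 232 under zinc depletion, at a log2 fold change of 0.90 ± 0.40 (SE, adjusted p = 0.681, edgeR), with no overlap. Ssr4, the delta subunit and the highest of the 39 genes per kilobase of coding sequence, was at 147, 149 and 256 against 130.4, 434 and 691 under zinc depletion, at a log2 fold change of 1.18 ± 0.58 (SE, adjusted p = 0.681, edgeR). There zinc depleted replicate 1 was the lowest of all 6 libraries and replicates 2 and 3 were the highest, and the ratio of Ssr4 to Ssr1 counts, 3.11, 2.86 and 4.26 against 1.56, 6.22 and 9.80, followed the same order.

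Signal peptidase, which cleaves the signal sequence, had a median log2 fold change of 0.87 over 5 genes, all higher by sign. Sec11c, 1 of its alternative catalytic subunits, was at 71.4, 65.1 and 150.3 on standard diet and 93.2, 225 and 332 under zinc depletion, at a log2 fold change of 1.18 ± 0.54 (SE, adjusted p = 0.681, edgeR). Its paralogue Sec11a was at 30.6, 23.3 and 32.6 against 24.03, 38.5 and 57.4 under zinc depletion. The Sec11c to Sec11a count ratio was 2.34, 2.80 and 4.61 on standard diet and 3.88, 5.84 and 5.79 under zinc depletion, with zinc depleted replicate 1 below standard diet replicate 3. Among the accessory subunits, Spcs3 was at 60.7, 62.2 and 94.7 on standard diet and 96.1, 138 and 163 under zinc depletion, with all zinc depleted libraries higher, though replicate 1 by little. Spcs1 was at 36.4, 35.7 and 71.1 against 37.3, 109 and 177 under zinc depletion, and Spcs2 was at 66.1, 68.3 and 107 on standard diet and 82.6, 133 and 214 under zinc depletion. For these last, zinc depleted replicates 2 and 3 were highest and replicate 1 lay within the standard diet range.

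Oligosaccharyltransferase had a median log2 fold change of 0.31 over 7 genes, 6 higher and 1 lower by sign. Its catalytic subunits had small differences: Stt3a, which acts on chains as they leave the channel, was at 62.9, 73.7 and 77.6 against 95.4, 63.5 and 81.4 under zinc depletion, and Stt3b, which also acts after translation, was at 53.6, 48.6 and 50.8 on standard diet and 53.3, 55.1 and 59.8 under zinc depletion. Their log2 fold changes were 0.17 ± 0.37 and 0.14 ± 0.34 (SE). Rpn2, a structural subunit also known as ribophorin II, was at 217, 207 and 185 against 218, 141 and 128 under zinc depletion, at a log2 fold change of -0.33 ± 0.40 (SE, adjusted p = 0.819, edgeR). Zinc depleted replicates 2 and 3 were the lowest libraries for Rpn2, while for Rpn1, ribophorin I, with a coding length close to that of Rpn2 (1824 and 1893 bases), zinc depleted replicate 3 was the highest at 113, 116 and 119 on standard diet and 133, 136 and 194 under zinc depletion. The ratio of Rpn2 to Rpn1 counts was accordingly 1.92, 1.79 and 1.55 on standard diet and 1.64, 1.03 and 0.660 under zinc depletion. Ost4, the smallest subunit, was at 21.7, 26.95 and 39.8 against 29.9, 65.4 and 95.9 under zinc depletion, at a log2 fold change of 1.11 ± 0.47 (SE, adjusted p = 0.681, edgeR). Ddost, a structural subunit, was at 125, 126 and 161 on standard diet and 123, 209.7 and 315 under zinc depletion, and Dad1, another small structural subunit, was at 41.8, 50.4 and 59.5 against 59.05, 58.1 and 71.5 under zinc depletion. Although Dad1 was short (coding length 339 bases), its log2 fold change of 0.31 ± 0.36 (SE) was below the median of 0.56 for all tested genes of coding length under 500 bases.

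The COPII genes had a median log2 fold change of 0.32 over 10 genes, 6 higher and 4 lower by sign, where the 29 genes of ER entry and processing had a median of 0.65, 27 higher and 2 lower. Sar1a and Sar1b, the GTPases that start the coat, encode closely related proteins of the same coding length, 594 bases. Sar1a was at 44.3, 57.7 and 96.4 on standard diet and 84.5, 95.5 and 136 under zinc depletion, at a log2 fold change of 0.67 ± 0.42 (SE, adjusted p = 0.694, edgeR). Sar1b was at 18.8, 21.00 and 37.1 against 15.4, 58.7 and 84.1 under zinc depletion, at a log2 fold change of 1.04 ± 0.57 (SE, adjusted p = 0.681, edgeR). Zinc depleted replicate 1 was the lowest of all libraries for Sar1b but the fourth highest for Sar1a, and the Sar1b to Sar1a count ratio was 0.424, 0.364 and 0.384 on standard diet and 0.182, 0.615 and 0.620 under zinc depletion, so that the standard diet libraries lay between the zinc depleted ones.

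In the inner coat, the paralogues of Sec23, the GTPase-activating subunit, had log2 fold changes of opposite sign. Sec23b (chr2:144391970-144432684, plus strand, 20 exons) was at 29.3, 40.8 and 64.9 on standard diet and 94.7, 60.8 and 66.4 under zinc depletion, at a log2 fold change of 0.72 ± 0.42 (SE, adjusted p = 0.681, edgeR). Sec23a (chr12:59005128-59058914, minus strand, 20 exons) was at 4.82, 4.76 and 4.69 against 3.64, 3.37 and 2.21 under zinc depletion, at a log2 fold change of -0.62 ± 0.44 (SE, adjusted p = 0.707, edgeR). The groups did not overlap for Sec23a, the lowest of the 39 genes per kilobase, and for Sec23b only zinc depleted replicate 2 fell below a standard diet library. With the positions given on GRCm39, the coding lengths were 2301 bases for Sec23b and 2295 bases for Sec23a. The ratio of Sec23b to Sec23a counts, which rests on no scaling, was 6.08, 8.57 and 13.8 on standard diet and 26.0, 18.1 and 30 under zinc depletion. All zinc depleted ratios were above all standard diet ratios, zinc depleted replicate 1 included. Sec23a rested on few reads, with 61, 44 and 42 counts on standard diet and 53, 16 and 13 under zinc depletion.

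Sec24, the subunit that selects cargo, has 4 paralogues, and Sec24d, the shortest at a coding length of 3096 bases, held the largest share of their counts in every library. Sec24d (chr3:123061103-123159291, plus strand, 23 exons) was at 37.7, 51.1 and 50.5 on standard diet and 116, 55.1 and 39.8 under zinc depletion, at a log2 fold change of 0.60 ± 0.45 (SE, adjusted p = 0.713, edgeR). Sec24a was at 9.63, 10.1 and 11.7 against 21.01, 5.05 and 3.24 under zinc depletion, Sec24b at 11.1, 9.74 and 7.92 on standard diet and 13.7, 6.52 and 2.55 under zinc depletion and Sec24c at 35.8, 40.9 and 28.2 against 57.2, 24.6 and 22.6 under zinc depletion. In all 4 genes zinc depleted replicate 1 was the highest library, and in Sec24a, Sec24b and Sec24c zinc depleted replicates 2 and 3 were the lowest. Sec24d took 40.0, 45.7 and 51.3% of the counts of the 4 paralogues on standard diet and 55.9, 60.4 and 58.4% under zinc depletion, with no overlap. Its count ratio to Sec24a was 3.92, 5.08 and 4.30 against 5.54, 10.9 and 12.3, and its ratio to Sec24b was 3.39, 5.24 and 6.37 against 8.47, 8.45 and 15.6, also without overlap. In zinc depleted replicates 2 and 3 these ratios rested on few reads, 24 and 19 counts of Sec24a and 31 and 15 of Sec24b. The ratio to Sec24c overlapped, at 1.05, 1.25 and 1.79 against 2.03, 2.24 and 1.76. No p is given for these ratios, and no share of separated ratios over other pairs of genes was computed. Among all ratios computed, only Sec23b to Sec23a, Sec24d to Sec24a and Sec24d to Sec24b lay apart between the diets. The Sec24d share and the Sec24d ratios use the same Sec24d counts and are not separate observations. Paralogues were compared by a stated rule and pairs of subunits were picked after their values had been seen.

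In the outer coat, Sec13, a subunit that the coat shares with the nuclear pore, was at 27.9, 34.7 and 44.1 on standard diet and 32.1, 69.4 and 96.9 under zinc depletion, at a log2 fold change of 0.89 ± 0.45 (SE, adjusted p = 0.681, edgeR). Sec31a, which forms the rods of the outer cage with Sec13, was at 68.9, 78.2 and 57.1 against 99.96, 60.4 and 47.8 under zinc depletion, at a log2 fold change of 0.03 ± 0.40 (SE, adjusted p = 0.987, edgeR). Zinc depleted replicate 1 had the highest Sec31a level and the lowest Sec13 to Sec31a count ratio, 0.321, where the other zinc depleted libraries stood at 1.15 and 2.02 and the standard diet libraries at 0.405, 0.445 and 0.771. The sign of the Sec31a difference changed with the scaling and with the library left out.

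**Figure D2:**
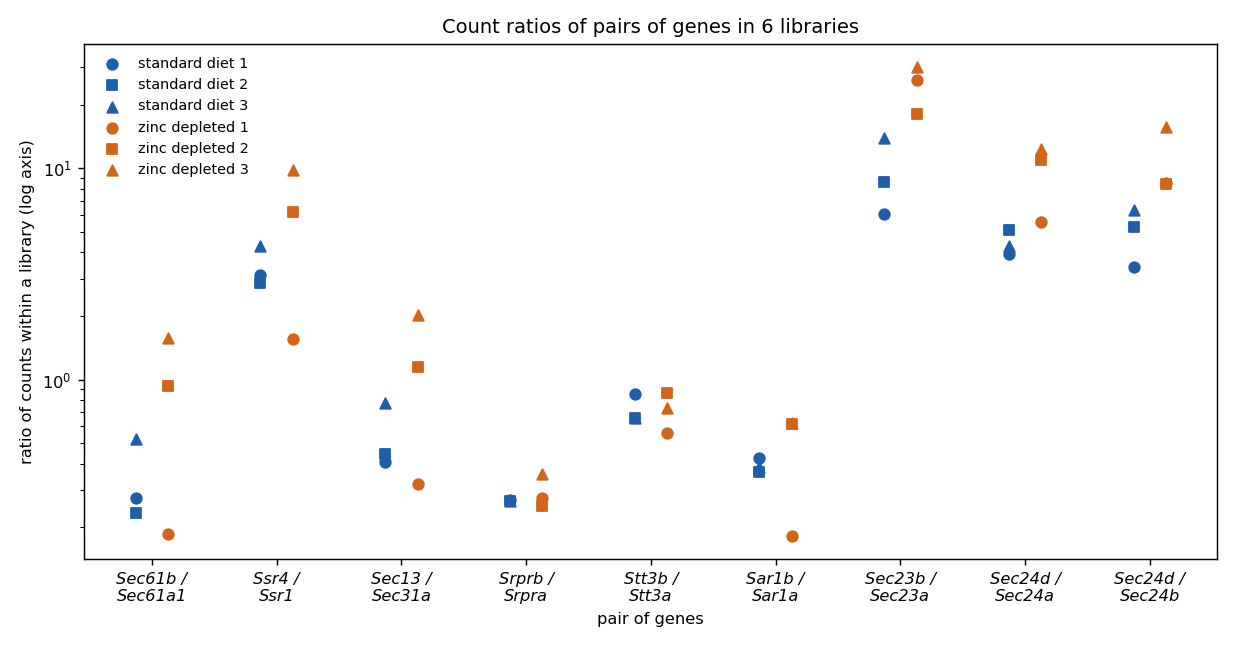
Ratio of the counts of a pair of genes within each library (log axis), for standard diet libraries (blue) and zinc depleted libraries (orange), with the marker shape giving the replicate. From Sec61b / Sec61a1 to Sec13 / Sec31a, and for Sar1b / Sar1a, the zinc depleted libraries lie on either side of the standard diet libraries, whereas for Sec23b / Sec23a (18.1 to 30 against 6.08 to 13.8), Sec24d / Sec24a and Sec24d / Sec24b they lie above them.

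Much of the order among the 39 genes went with coding length, a measure added after the data had been seen. The correlation of log2 fold change with transcript length was not computed. Coding length, from the Ensembl canonical transcript, ran from 111 bases in Ost4 to 3753 in Sec24b. The Spearman correlation across genes of log2 fold change with coding length was -0.80 over the 39 genes and -0.34 over 9567 tested genes, and genes that share libraries are not independent replicates. Of the genes with a coding length under 500 bases, 8 of 8 were higher by sign with a median of 1.21. Of the 859 tested genes of that class 684 were higher, with a median of 0.56. From 500 to under 1000 bases 12 of 12 were higher with a median of 0.88. Of 2263 tested genes there, 1426 were higher, with a median of 0.23. From 1000 to under 2000 bases 6 were higher and 2 lower with a median of 0.39. Of 3665 tested genes there, 1675 were higher, with a median of -0.07. At 2000 bases and over 7 were higher and 4 lower with a median of 0.14. Of 2780 tested genes there, 969 were higher, with a median of -0.21. In each class the median of the 39 genes was thus above that of all tested genes, with TMM scaling.

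**Figure D3:**
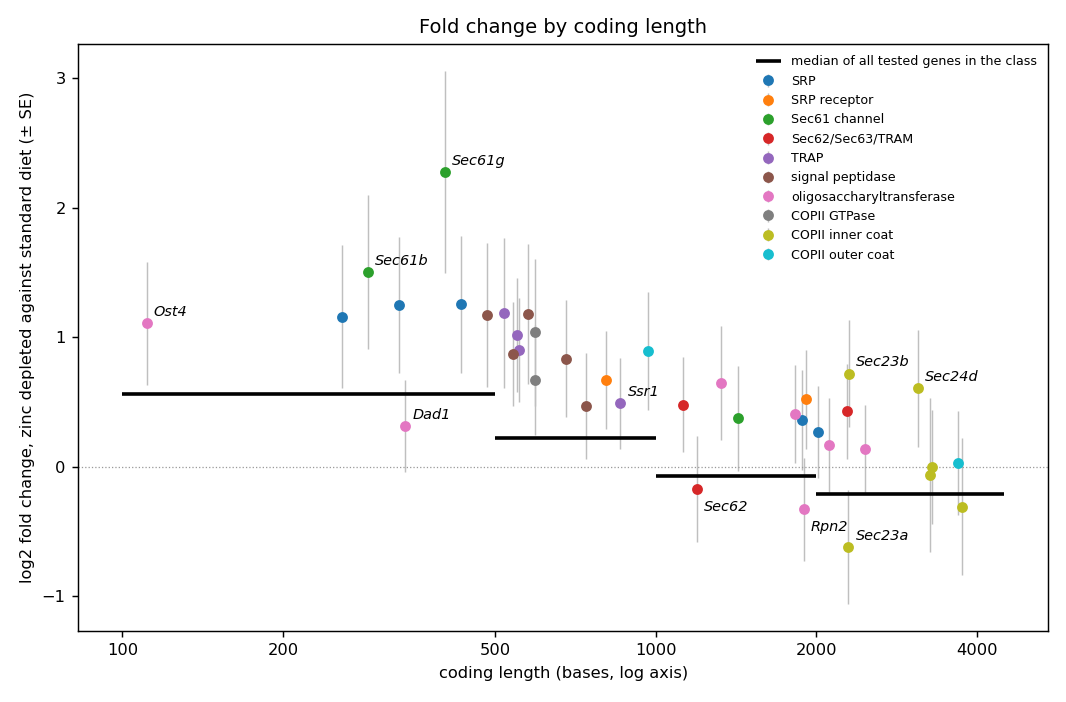
Log2 fold change of zinc depleted against standard diet libraries (error bars, SE) against coding length (bases, log axis) for the 39 genes, coloured by sub-complex, with black lines at the median of all tested genes in 4 classes of coding length. The fold changes fall with length from Sec61g and Sec61b to Sec23a and the Sec24 genes, and most points lie above the black lines, with Dad1, Sec62, Rpn2, Sec23a and Sec24b below.

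The same dependence was present in single libraries, in opposite directions. Per doubling of coding length, the deviation of the 39 genes from their 6-library means changed by 0.24, 0.28 and -0.02 log2 units on standard diet and by 0.37, -0.30 and -0.57 under zinc depletion. Standard diet replicate 3 was nearly flat, with deviations of SD 0.19 among the 39 genes, and zinc depleted replicate 3 was the steepest, with an SD of 0.87. The coding length trend of all tested genes was then removed from each library as a straight line. This reduced the SD among the 39 genes from 0.43 to 0.31 and from 0.47 to 0.34 in standard diet replicates 1 and 2 and left it at 0.19 in replicate 3. In zinc depleted replicates 1, 2 and 3 the SD fell from 0.60 to 0.40, from 0.48 to 0.32 and from 0.87 to 0.52. After removal the median deviation of the 39 genes was -0.42, -0.36 and -0.04 log2 units on standard diet and 0.11, 0.22 and 0.43 under zinc depletion. These medians did not overlap between the diets, and neither did those before removal, at -0.52, -0.44 and -0.03 against -0.0043, 0.15 and 0.60. Before removal, standard diet replicate 3 and zinc depleted replicate 1 were nearly level. The medians describe the same genes as the median log2 fold change, and no share of separated medians over other gene sets was computed.

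**Figure D4:**
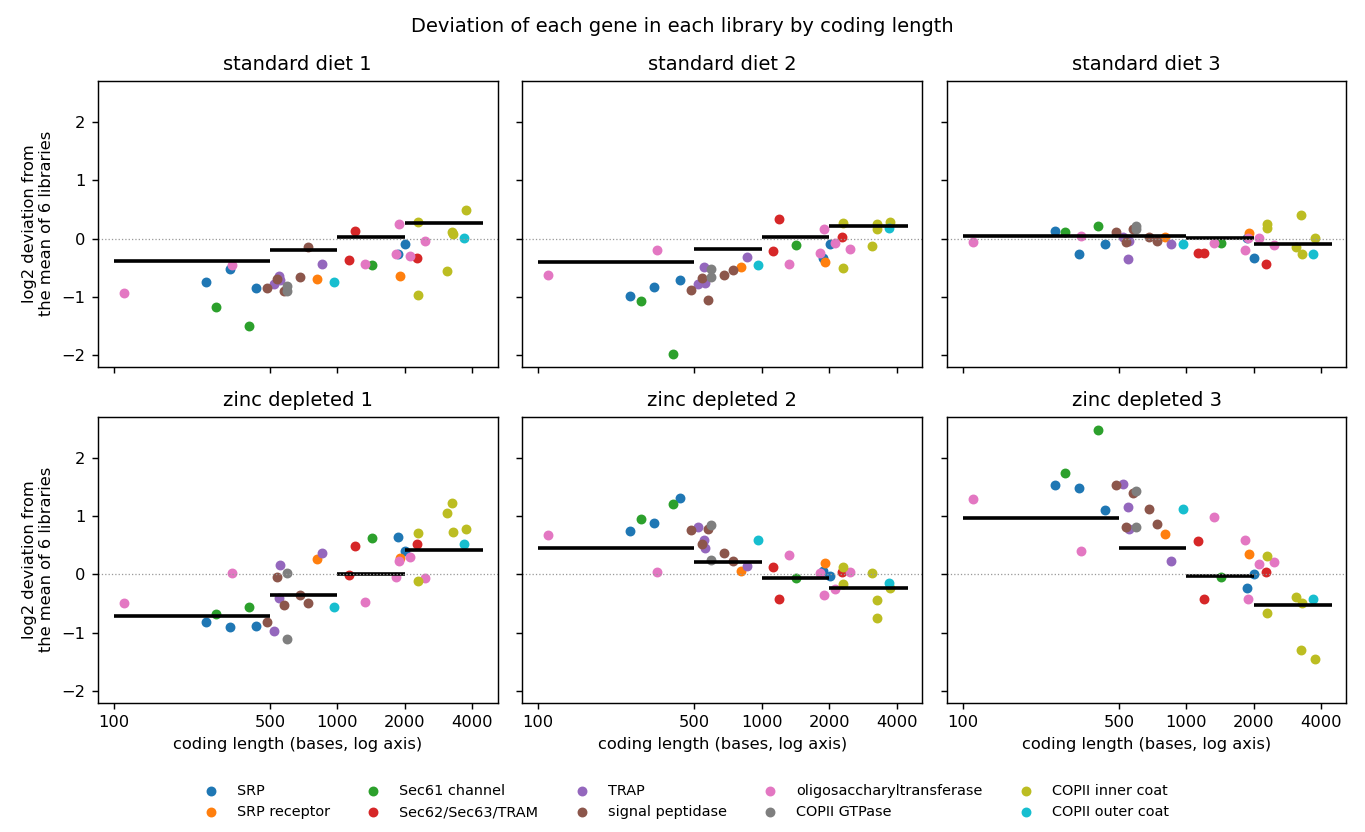
Deviation of each of the 39 genes from its mean over the 6 libraries (log2 TMM-scaled CPM) against coding length (bases, log axis), 1 panel per library, with points coloured by sub-complex and black lines at the median of all tested genes in 4 classes of coding length. Deviations in each panel are less the median of all tested genes with a coding length. The points climb with length in standard diet replicates 1 and 2 and in zinc depleted replicate 1, are flat in standard diet replicate 3 and descend in zinc depleted replicates 2 and 3.

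With the coding length trend of each library taken out of the edgeR fit, an alternative added after the data had been seen, the median log2 fold change of the 39 genes was 0.56, which was 0.54 above that of all tested genes, with 34 higher and 5 lower by sign. Of the 39 genes 0 passed an adjusted p of 0.05, as did 0 of all tested genes. At an unadjusted p under 0.05, 8 genes were higher (20.5%) and 0 were lower, where 4.39% of all tested genes were higher and 4.24% were lower. These were Sec61b, Sec61g, Sec63, Ssr2, Sec11c, Sec23b, Sec24d and Sec13, and 3 of them were among the 7 found without the correction. With this correction the SRP went from 1.16 to 0.52, the Sec61 channel from 1.501 to 0.83, TRAP from 0.96 to 0.65, signal peptidase from 0.87 to 0.59 and the Sar1 GTPases from 0.85 to 0.55, while the SRP receptor (0.59 to 0.65), Sec62, Sec63 and Tram1 (0.43 to 0.49), oligosaccharyltransferase (0.31 to 0.39), the inner coat (-0.03 to 0.08) and the outer coat (0.46 to 0.55) were slightly higher after removal. With the trend over the length of the whole transcript removed instead, the medians were 0.75 for the SRP, 1.10 for the Sec61 channel, 1.01 for TRAP, 0.88 for signal peptidase and 0.66 for the Sar1 GTPases, so TRAP and signal peptidase did not fall under that length. The median of the 39 genes was then 0.63, and 12 genes (30.8%) were higher and 0 lower at an unadjusted p under 0.05, 6 of them among the 7 found without correction, where 4.66% of all tested genes were higher and 4.75% lower. Read against the median of all tested genes, 9 of the 10 sub-complex medians were above 0 under each alternative run, and the inner coat ranged from -0.55, without zinc depleted replicate 1, to 0.32, with total counts only.

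Levels can be compared between genes only per length. As mean TMM-scaled CPM per kilobase of coding length, Ssr4 (580), Ost4 (420) and Sec61b (384) were the highest of the 39 genes, and Sec23a (1.71), Sec24b (2.29) and Sec24a (3.09) were the lowest. Per kilobase of the canonical transcript, Sec11c (182), Sec61b (89.9) and Ssr4 (88.5) were the highest, and Sec23a (0.919), Sec24a (1.54) and Sec24b (1.64) remained the lowest 3. The order at the top depends on the length used, since the canonical transcripts of several short genes are long, at 9364 bases for Ssr1 and 3652 bases for Srp14.

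Promoters of the 39 genes were searched in the 250 bases of GRCm39 before the start of the canonical transcript, on both strands, for motifs known from genes of the secretory pathway. The ER stress response element, CCAAT and CCACG with 9 bases between them, was in 0 of the 39 promoters and in 0.116% of the 21627 promoters of all protein coding genes. The ERSE-II form, ATTGG and CCACG with 1 base between them, was in 0 of the 39 and in 0.0555% of all promoters. The core of the XBP1 and ATF6 element, TGACGTG, was in 2 of the 39, Srp19 and Stt3a, which is 5.13%. This core was in 1.51% of all promoters and in 2.01% of those of tested protein coding genes. A CCAAT box alone, which is part of the ER stress response element, was in 16 of the 39 (41.0%). This box was in 36.5% of all promoters and in 35.9% of those of tested protein coding genes. A match here describes the letters of a window and not a bound site. The sites below are examples, and the site of Srp19 is not shown. Stt3a is 1 of the 2 genes with the rarer core, and Ssr3 and Ssr4 are TRAP genes with CCAAT boxes close to the start. Other genes, such as Rpn1 (5 to 9 bases before the start) and Rpn2 (9 to 13 bases), had boxes closer to it. Motif letters are in capitals, each sequence is 5′ to 3′ on the strand of its gene, and in Stt3a the capitals are the core read on the opposite strand.
Stt3a (chr9:36679165-36679211, minus strand, 210 to 216 bases before the start): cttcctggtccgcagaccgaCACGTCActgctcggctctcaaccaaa
Ssr3 (chr3:65300101-65300145, minus strand, 77 to 81 bases before the start): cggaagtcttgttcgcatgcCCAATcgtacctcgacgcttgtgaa
Ssr3 (chr3:65300061-65300105, minus strand, 37 to 41 bases before the start): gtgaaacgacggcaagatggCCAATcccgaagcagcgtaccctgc
Ssr4 (chrX:72830250-72830294, plus strand, 30 to 34 bases before the start): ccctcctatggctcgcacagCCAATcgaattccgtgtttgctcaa
Set beside the levels above, Stt3a had a log2 fold change of 0.17 and Srp19 of 1.25, and both overlapped between the diets. The median was 0.71 for the 2 genes with the TGACGTG core and 0.60 for the other genes. Ssr3 did not overlap between the diets, and Ssr4 did. The 16 genes with a CCAAT box had a median log2 fold change of 0.63 and the other 23 genes 0.52. Of the 16, Rpn2 (-0.33) and Sec24a (-0.06) were lower by sign and the rest were higher.

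Other genes of the pathway had medians above that of all tested genes, and edgeR called 0 of them. At an unadjusted p under 0.05, 1 translocation factor (6.25%) and 4 genes of COPII regulation (16%) were higher, and the other lists had 0, where 2.58% of all tested genes were higher and 4.03% lower. Of 16 tested further translocation factors, 12 were higher and 4 lower by sign, with a median log2 fold change of 0.36. Hspa5, the ER chaperone BiP, had the smallest unadjusted p among them and was at 153, 235 and 396 TMM-scaled CPM on standard diet and 442, 548 and 616 under zinc depletion, without overlap. Of 25 genes of COPII regulation and cargo receptors, 21 were higher and 4 lower, with a median of 0.33, and Tmed5, a p24 family cargo receptor, was at 4.74, 4.76 and 9.82 against 12.2, 17.3 and 18.05, a log2 fold change of 1.30 ± 0.42 (SE, edgeR quasi-likelihood test, adjusted p = 0.681). Among 31 further OST and N-glycan genes the median was 0.19, with 21 higher and 10 lower, and Alg3, a mannosyltransferase of glycan assembly, had the smallest unadjusted p with a log2 fold change of -0.86. The ER membrane complex (9 tested, 6 higher and 3 lower, median 0.17, led by Emc4 at 1.04) and the COPI coat of retrograde vesicles (11 tested, 8 higher and 3 lower, median 0.23, led by Copg2 at -0.75) were also without a call. The transcription factors of the secretory pathway had a median of 0.24 over 7 genes, 6 higher and 1 lower. Xbp1, which drives many of the genes described here, was at 123, 142 and 308 against 389, 275 and 352, and zinc depleted replicate 2 lay within the standard diet range. All of these medians are on the TMM scale, on which all tested genes have a median of 0.00.

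Markers of other cell types were summed in each library. The study describes its sorted Paneth cells as nearly pure. A marker sum cannot tell other cells from expression of these genes in the Paneth cells themselves. As CPM of total counts, the 7 goblet markers, from another secretory cell, summed to 9010, 7639 and 8052 on standard diet and to 12746, 6372 and 5866 under zinc depletion, and on the TMM scale used for the genes above they summed to 5220.2, 5077 and 8967 against 8744, 9960 and 12758. Zinc depleted replicate 1 was highest in the CPM sum of the goblet markers, and in the CPM sums of 9 of the 10 sub-complexes. As CPM of total counts, the groups did not overlap for 5 stem cell markers (1174 to 3612 on standard diet, 474 to 569 under zinc depletion), 6 proliferation markers (74.5 to 177 against 35.1 to 51.0) and 8 enteroendocrine markers (43.8 to 84.5 against 27.5 to 40.5). On the TMM scale these 3 sums overlapped, at 911 to 2093 against 390.3 to 1163, 63.3 to 103 against 35.02 to 98.4 and 39.9 to 56.2 against 18.9 to 88.03. Enterocyte (9 genes, 130 to 454 against 70.2 to 250 CPM), tuft (6 genes, 27.0 to 749 against 44.9 to 200 CPM) and immune markers (8 genes, 39.1 to 96.6 against 36.3 to 60.7 CPM) overlapped on both scales, and of all these markers only Cd3e, a T cell gene, was at 0 counts in every library. The part of other cells in the differences described above was not tested.

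Some counts may include reads of other genes, since the use of strand and the handling of reads with several matches are not stated in the sources used here. Exons of Ost4 overlapped those of the antisense gene Agbl5 over 72.7% of their length, and those of Ddost overlapped Pink1 over 49.4%. For the remaining genes this share was at most 18.9%, in Sec11a, and no member overlapped a gene on its own strand. Of the 75-base stretches of the canonical transcript, 82.8% were specific to Srp9, 86.5% to Sec61g and 89.9% to Sec61b, which share stretches with gene copies such as Gm13736, Sec61g-ps2 and Gm5870, and 78.5% were specific to Srpra. Values for Ost4, Ddost, Srp9, Sec61b, Sec61g and Srpra are uncertain to that extent. Sec23a, the least specific of the Sec23 and Sec24 genes, was at 96.1%.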

How the data were processed

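RNA-seq of sorted mouse Paneth cells was analysed in 6 libraries, grouped by diet as the labels give it. A table of raw counts, 1 row per gene and 1 column per library, was deposited by the authors, and 0 columns were left unused. Per the labels, reads were single-end and from an Element AVITI instrument. The submitters' processing notes name FastQC, Trimmomatic 0.39, STAR 2.7.10a, DESeq2 and build mm39, and the study's methods describe STAR at default settings with a GENCODE annotation of GRCm39. Which program counted the reads, whether it used strand and how it handled multiple matches is not given in the sources used here.

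GENCODE M39 on GRCm39 gave symbols, positions and canonical transcript lengths, and in it 54749 of 55414 identifiers were found. Diet was tested with edgeR 4.0.16 in R 4.3.3 (quasi-likelihood F test, TMM, filterByExpr, two-sided, Benjamini-Hochberg over 9749 genes, threshold 0.05, biological coefficient of variation 44.0%). The SE is the absolute log2 fold change over the square root of F. Total counts of 6139397 to 12772373 mean that a count of 0 allows up to 3 counts, 0.235 to 0.489 CPM, for counting error only. Length slopes were fitted per library on deviations of log2 CPM (prior count 2). The straight lines over coding length were also the trend removed from the deviations of the 39 genes. Before removal, these deviations were less the median of all tested genes with a coding length in that library. Alternatives were DESeq2 1.42.0, limma-voom (limma 3.58.1), other scalings and filters, the replicate number as a block, length trends removed by an offset (loess, span 0.3) and leaving out each library. The fits were tested on simulated data. Within each sub-complex, full statistics are given for the gene with the smallest unadjusted p and the gene with the highest mean CPM. Sec61b, Ssr3 and Sec23a were added after their values were seen. In the other gene lists, the gene with the smallest unadjusted p is named, and Xbp1 leads its list by this rule. The 39 genes and all lists were chosen with earlier results of these data known.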

Additional observations from a re-analysis of the deposited data

How the results depend on the processing

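Of all tested genes 0 were called, with 645 at an unadjusted p under 0.05. DESeq2 called 10, the fit with no low-count filter called 76, and leaving out each library in turn gave 0 to 28, with 28 without standard diet replicate 3. Of the 39 genes 0 were called, except that 1, Sec61g, passed with no low-count filter (edgeR adjusted p = 0.00923), where genes of very low counts enter the fit. The median of the 39 genes kept its sign except under total counts only, at -0.071, where the median of all tested genes was -0.66, and the difference of the medians ran from 0.46 to 0.79 over all alternatives. Total counts only also turned Srpra to -0.071, Sec61a1 to -0.11, Tram1 to -0.29, Sar1a to -0.018, Sec13 to -0.045 and Sec31a to -0.48. Sec31a, at 0.03, was -0.058 with limma-voom, -0.039 with the stricter filter and -0.030 with the replicate block, and ran from -0.32 to 0.28 when single libraries were left out. Without zinc depleted replicate 1, the log2 fold change of Sec24a was -1.33 and that of Sec24b -1.08. The cause of these shifts was not tested. The replicate numbers of the labels were shared between the diets, and the labels do not say whether they pair libraries. Deviations of same-numbered libraries correlated at 0.15, -0.06 and 0.25. Differently numbered libraries of opposite diets correlated at -0.28 to 0.25. So few correlations cannot decide whether the numbers pair the libraries. The fit with the replicate block called 0 genes, 962 at an unadjusted p under 0.05, and gave a median of 0.55 over the 39 genes. With 3 libraries a group and a biological coefficient of variation of 44.0%, the depth of Sec61g and Sec23a and the spread between libraries limit what differences could be called.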
